A study of Mus musculus with 2 samples.

Results

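Transcripts of 10 interferon-inducible genes that lie outside the MHC were followed in growth-arrested mouse embryonic fibroblasts with and without FGF2. The genes were taken from a fixed list and found on the arrays by the NCBI gene ID read from each probe's ID. All 10 had at least 1 probe, among 7409 genes that could be named in this way, and together they had 14 probes. They comprise the regulators Irf1 and Irf9 and 8 effectors: Ddx58, Trim25, Igtp, Irgm2, Parp9, Ifit3, Oas1a and Samhd1. The FGF2 group was CD1 mouse embryonic fibroblasts, cells that can serve as a feeder layer for stem cells, kept for 24 h in serum replacement medium for human embryonic stem cells with 40 ng/ml of FGF2. The control group was the same cells kept for 24 h in that medium without FGF2. Both groups had been grown in medium with fetal calf serum, arrested by the DNA crosslinking agent mitomycin C and plated at 55000 cells per square centimetre. Each group was measured once, on 1 single-colour Illumina bead array, so no test was possible and every difference below describes this pair of arrays without a replicate check. The labels name no interferon treatment.

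Interferons are secreted proteins that warn cells of infection. Type I interferons act through the transcription complex ISGF3, in which IRF9 joins further transcription factors and binds the interferon-stimulated response element (ISRE) of its target genes. Interferon gamma acts mainly through factors that bind the gamma-activated site (GAS), and Irf1 is a classical target of that route and codes for a further transcription factor. Fibroblasts keep a low level of many of these transcripts without added interferon, since they make small amounts of type I interferon themselves.

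The effectors act at different steps of defence. Ddx58 codes for RIG-I, a cytosolic sensor of viral RNA, and Trim25 for a ubiquitin ligase that takes part in RIG-I signalling. Igtp (also called Irgm3) and Irgm2 are immunity-related GTPases, which act on the vacuoles of intracellular pathogens in mice. Parp9 belongs to the ADP-ribosyltransferase family and pairs with the ubiquitin ligase encoded by Dtx3l. Ifit3 belongs to a family of proteins that bind viral RNA or its partners, Oas1a belongs to the oligoadenylate synthetases that switch on RNase L, and Samhd1 breaks down deoxynucleotides.

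Promoter sequence is shown first because interferon signalling reaches its target genes through short promoter elements. RefSeq promoter entries (build GRCm38.p6) existed for 9 of the 10 genes. The 250 bases before each transcript start were searched for an ISRE core (GAAA, any 2 bases, GAAA, on either strand) and for a GAS core, TTCNNNGAA, which reads the same on both strands. In the table's 32851 promoters, 2.98% held the ISRE core, 7.02% held the GAS core and 0.332% held both. Among the members, Igtp, Irgm2, Ifit3 and Oas1a held the ISRE core, and Irf1, Igtp, Irgm2, Oas1a and Samhd1 held the GAS core. Igtp, Irgm2 and Oas1a held both, and Irf9, Ddx58 and Trim25 held neither within this window. A match of this kind is a description of letters and not a binding site. The last 160 bases before the start are printed 5′ to 3′ for the 5 genes with a match inside them, as RefSeq gives them on the gene's own strand, with the matching bases in capitals:
Irf1, chr11:53769854-53770013, plus strand: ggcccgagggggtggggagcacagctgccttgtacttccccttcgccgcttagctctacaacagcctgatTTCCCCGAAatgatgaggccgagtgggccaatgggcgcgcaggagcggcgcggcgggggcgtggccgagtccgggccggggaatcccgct
Igtp, chr11:58199396-58199555, plus strand: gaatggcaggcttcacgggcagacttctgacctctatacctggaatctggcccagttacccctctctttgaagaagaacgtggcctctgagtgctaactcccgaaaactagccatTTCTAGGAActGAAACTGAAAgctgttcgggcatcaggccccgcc
Irgm2, chr11:58214817-58214976, plus strand: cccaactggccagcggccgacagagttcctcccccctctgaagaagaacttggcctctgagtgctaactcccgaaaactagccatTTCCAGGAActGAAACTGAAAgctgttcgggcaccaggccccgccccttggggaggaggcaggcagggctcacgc
Ifit3, chr19:34583369-34583528, plus strand: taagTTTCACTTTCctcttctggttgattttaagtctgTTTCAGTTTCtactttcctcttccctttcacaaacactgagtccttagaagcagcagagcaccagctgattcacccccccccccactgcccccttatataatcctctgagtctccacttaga
Oas1a, chr5:120907526-120907685, minus strand: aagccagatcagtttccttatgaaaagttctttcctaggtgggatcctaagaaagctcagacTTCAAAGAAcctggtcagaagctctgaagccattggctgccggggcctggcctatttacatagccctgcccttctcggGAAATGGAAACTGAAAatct

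In Irf1 the single match was a GAS core 90 to 82 bases before the start. In Igtp the GAS core began 45 bases before the start and an ISRE core followed at 34, and Irgm2 held the same pair at 75 and 64. These GTPase genes are neighbours on chromosome 11 with no gene between them in the RefSeq table. With their GAS cores lined up, 107 of 130 bases (82.3%) of their printed windows were identical. Ifit3 carried 2 ISRE cores read on the opposite strand, at 156 and 122 bases before the start. In Oas1a 2 ISRE cores overlapped, so the capitals form 1 run there.

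**Figure D1:**
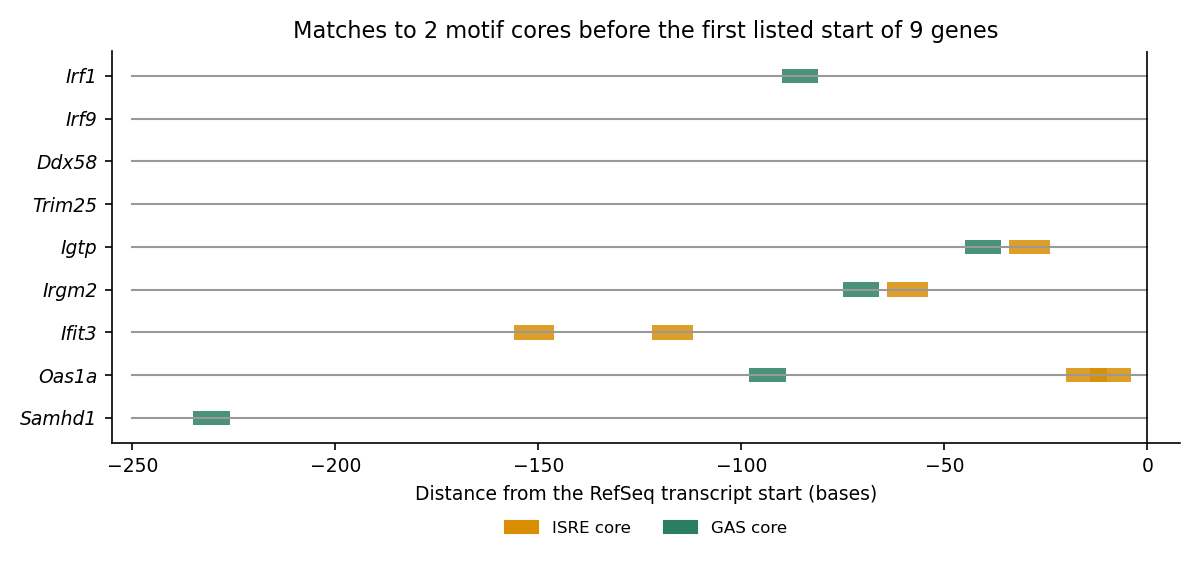
Positions of motif matches in the 250 bases before the first listed RefSeq start of the 9 members with a promoter entry (horizontal axis, distance in bases). Orange bars are ISRE cores and green bars GAS cores; Irf9, Ddx58 and Trim25 have none in this window, and Igtp and Irgm2 show the same GAS and ISRE pair.

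The probes were next read on the arrays as deposited, in intensity units with background included and with the bead spread that the file gives. Of 24044 probes, 33.8% were detected on the FGF2 array and 34.1% on the control array, where detected means a detection score of at least 0.99. Undetected probes had a median signal of 133 on the FGF2 array and 141 on the control array, so a member near 200 units was mostly background. All 14 member probes had a lower deposited signal on the FGF2 array. Because undetected probes were lower there too, the arrays were brought to a common distribution by quantile normalization before ratios were taken. After it, 13 of the 14 were lower, the exception being an Oas1a probe detected on neither array. Of the 14, 8 were detected on both arrays, 3 on the control array only and 3 on neither. The share of all probes that were lower was not computed, so these counts cannot be set against it. The lowest detected signal of an array, 193 with FGF2 and 192 in the control after normalization, served as a floor, and a gene detected on 1 array only has a bound.

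**Figure D2:**
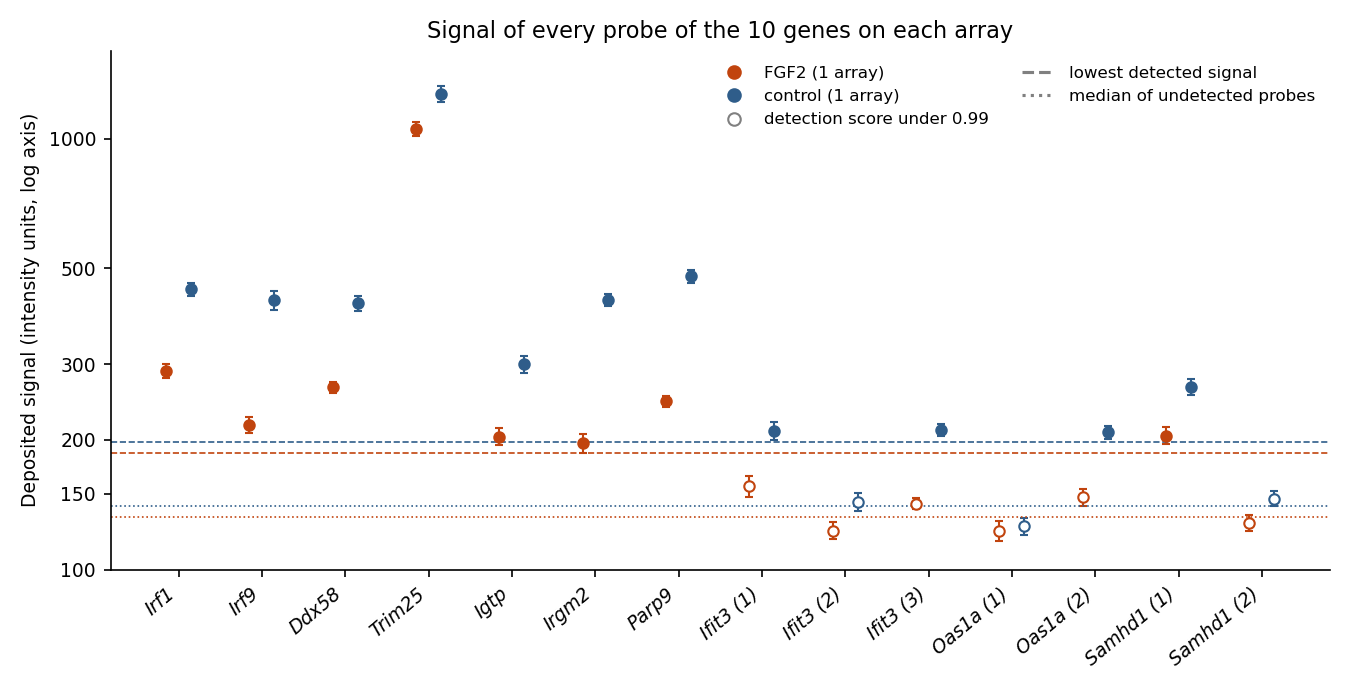
Deposited signal (vertical log axis, intensity units) of each of the 14 probes on the FGF2 array and on the control array, with bars for the deposited bead spread; open circles have a detection score under 0.99. The FGF2 point is lower for every probe, and for Igtp, Irgm2 and Samhd1 it lies close to the lowest detected signal.

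Both regulators were lower with FGF2. Irf1 had a signal of 289 ± 10.5 on the FGF2 array and 447 ± 16 on the control array (bead spread). Its normalized ratio was -0.55 on the log2 scale, with a bead error of 0.074, or 1.46-fold lower. Irf9, which gives ISGF3 its main DNA contact, had 216 ± 9.3 with FGF2 and 422 ± 21.6 in the control. Its log2 ratio was -0.87 with a bead error of 0.096. The signals of both genes lay far apart compared with the bead spread. That spread covers beads of 1 array only, and the difference between 2 cultures was not measured.

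Ddx58 and Trim25, which act in RIG-I signalling, were both lower with FGF2, Trim25 by little. Ddx58 had 265 ± 8.2 with FGF2 and 415 ± 16.2 in the control, a log2 ratio of -0.56 or 1.48-fold lower. Trim25 was the brightest member, with 1052 ± 39.6 on the FGF2 array and 1272 ± 52.9 on the control array. Its ratio was small, at -0.22 with a bead error of 0.081, and it is the value least touched by background.

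Of the neighbouring GTPase genes, Irgm2 had 197 ± 10 with FGF2 and 422 ± 13.3 in the control, a log2 ratio of -1.02 or 2.02-fold lower. Igtp had 204 ± 9.1 with FGF2 and 300 ± 13.5 in the control, with a log2 ratio of -0.46. Both FGF2 signals were just above the lowest detected one, and the floor lets no ratio fall below -1.09 for Irgm2 or -0.59 for Igtp. Their ratios are therefore close to the lowest that these arrays could show. Immunity-related GTPases have related copies, and the files used here do not hold the probe sequences, so signal from such copies cannot be told apart.

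Parp9 had 246 ± 7.4 with FGF2 and 479 ± 17.6 in the control, a log2 ratio of -0.88 or 1.84-fold lower with a bead error of 0.069. Dtx3l, its partner gene and neighbour on chromosome 16, had 279 ± 8.5 with FGF2 and 516 ± 16.6 in the control. The log2 ratio of Dtx3l was -0.81 and so close to that of Parp9. The gene models of the pair overlap in the RefSeq table, and the position of either probe is not given in the files.

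The remaining effectors were near background. Samhd1 had 205 ± 9.0 with FGF2 and 265 ± 11.5 in the control on its brighter probe, a log2 ratio of -0.28, and its second probe was detected on neither array. Ifit3 was detected on the control array only, by 2 of its 3 probes. These had 156 ± 9.1 and 142 ± 4.1 with FGF2, against 210 ± 9.9 and 211 ± 6.7 in the control. The bound from the brighter one was -0.08, or at least 1.06-fold lower. Oas1a, also detected on the control array only, had 147 ± 6.9 with FGF2 and 208 ± 7.3 in the control and a bound of -0.07. The sign of a bound follows from the detection. Ifit3 and Oas1a have closely similar neighbours in the mouse genome, so their signals are uncertain for that reason as well.

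Set against all genes, the members lay toward the lower end. The 8 members detected on both arrays had ratios below 0, with a median of -0.56, where 44.6% of the 2880 named genes detected on both arrays were below 0. For Ifit3 and Oas1a a sign below 0 follows from their detection, and with them at their bounds the median was -0.51. Among the 3217 named genes detected on at least 1 array the median log2 ratio was 0.03. At least 1.5-fold lower were 3 of 10 members, Irf9, Irgm2 and Parp9, where 5.04% of all named genes were. None of the 10 was at least 1.5-fold higher, where 4.57% of named genes were. Ddx58 and Irf1 stood just short of the threshold. At 2-fold only Irgm2 passed, where 1.62% of named genes were that much lower. In rank order of all named genes, Irgm2 was 51st from the lowest, Parp9 67th and Irf9 70th. Trim25 was 622nd, and 19.3% of named genes had a ratio at or below its own. These shares describe the arrays and are no test, and the genes were listed with earlier results of these data known.

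**Figure D3:**
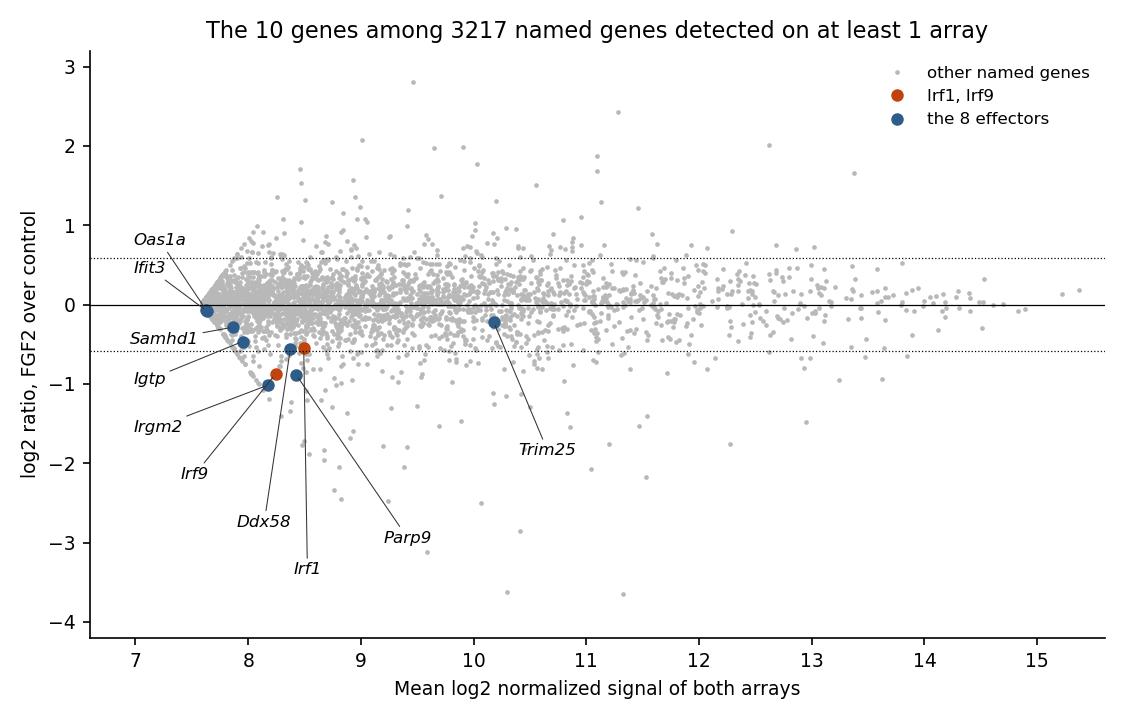
Log2 ratio of FGF2 over control (vertical axis) against the mean log2 normalized signal of both arrays for 3217 named genes detected on at least 1 array, with Irf1 and Irf9 in orange and the 8 effectors in blue; dotted lines mark 1.5-fold. The 8 members detected on both arrays lie below 0, as do Ifit3 and Oas1a by their detection, and all but Trim25 lie at the dim end, where the slanted lower edge of the points is the detection floor.

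Most folds were larger once background had been taken off. The authors' processed table holds the same signals with 132 units taken off the FGF2 array and 139 off the control array and the FGF2 values multiplied by 1.05. From its values, Irgm2 was 4.12-fold lower (68.7 with FGF2, 283 in the control) and Irf9 3.16-fold lower (89.5 with FGF2, 282 in the control). Parp9 was 2.82-fold lower at 120 with FGF2 and 340 in the control, and Igtp 2.11-fold lower at 75.9 with FGF2 and 160 in the control. The FGF2 values of Irgm2, Igtp and Samhd1 (77.3) are near the lowest that the table gives for that array, 58.4. That of Irf9 is not far above, so the folds of all these genes rest on the amount of background removed. Ddx58, Irf1 and Samhd1 were 1.96-fold, 1.85-fold and 1.63-fold lower there, whereas Trim25 stayed at 1.17-fold. By these values 7 of 10 members were at least 1.5-fold lower, where 9.98% of named genes were.

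**Figure D4:**
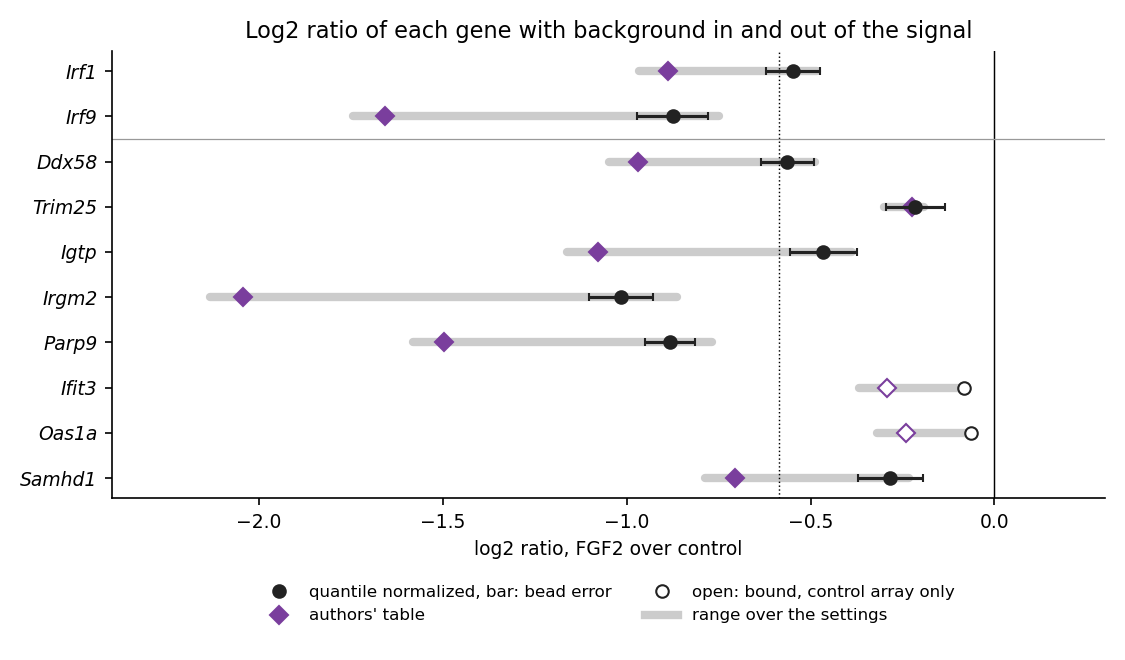
Log2 ratio of FGF2 over control (horizontal axis) for each member from quantile-normalized signals (black, with the bead error) and from the authors' table (purple), with the range over all settings in grey; open symbols are bounds and the dotted line is 1.5-fold lower. The ratio of the 8 members detected on both arrays is below 0 in every setting shown, from -2.13 to -0.86 for Irgm2 and from -0.30 to -0.19 for Trim25.

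Regulators and effectors were then compared. The log2 ratios of Irf1 and Irf9 averaged -0.71. The 6 effectors detected on both arrays averaged -0.57, a difference of -0.14 with an error of 0.15 from the scatter between probes of 1 gene. With Ifit3 and Oas1a added at their bounds the 8 effectors averaged -0.45, a difference of -0.27 with an error of 0.15. In the authors' table the averages were -1.27 for the regulators and -1.09 for the 6 effectors, a difference of -0.19. The difference from all 8 there was -0.39. The scatter between probes was not computed from that table, so these differences have no error of their own. In the quantile-normalized ratios the difference lay within the error for the 6 effectors and beyond it only with the 2 bounds, which the floor holds near 0. That error leaves out the spread between genes, which was wider. The 6 effectors had an SD of 0.32, and Irf1 and Irf9 lay 0.33 apart. In the authors' table these values were 0.63 and 0.77. Regulators and effectors are therefore not set apart by these values. The scatter between probes came from the quantile-normalized ratios of 299 pairs of probes in 243 genes. Its SD was 0.18 for a single ratio, and it covers neither cultures nor arrays. Of the 6 effectors, Irgm2 and Parp9 lay below both regulators in the quantile-normalized ratios and 3 lay above both. Parp9 at -0.88 and Irf9 at -0.87 were apart by less than their bead errors, 0.069 and 0.096. In the authors' table only 1 of the 6, Irgm2, lay below both regulators and 2 lay above both. The floor also holds the ratios of dim effectors close to 0, so sizes cannot be ranked between members.

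Genes with an almost equal pair of signals were looked up among 2841 named genes outside the lists that were detected on both arrays. The nearest to Irf1, by distance between the log2 signals of both arrays, were Tubb2b (0.055) and Fam168a (0.055). The nearest to Irf9 were Adam12 (0.090) and Adamts2 (0.094). Over 2 arrays such likeness is a matter of level and ratio alone.

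Other genes of the interferon pathway came from 8 lists with 142 genes reported here, of which 132 were not members. Of these 132, 62 had a named probe and 26 were detected. Of the 26, 3 were lower by 1.5-fold or more and 1 was higher by as much, where 5.04% of all named genes were as much lower and 4.57% as much higher. The median log2 ratio of the 26 was -0.14, with 4 of them (Adar, Trim34a, Ifi47 and Traf6) at bounds that do not limit the size of their difference. The lists are not complete, and these counts and the median depend on which genes were listed. Outside the lists, Ly6e was more than 1.5-fold higher with FGF2, with a log2 ratio of 0.61. Apol9a, Ifi30 and Ifi203, also outside them, had -0.32, -0.12 and 0.06.

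The 8 receptor and signalling genes detected and reported here had log2 ratios from -0.47 to 0.18. The receptor subunit Ifngr2 had a log2 ratio of 0.13, the kinases Jak2 and Tyk2 had -0.21 and 0.04 (that of Tyk2 changed sign under other settings), and Pias1, which codes for a SUMO ligase, had -0.47. The brighter probe of Stat3 stood at -0.25 and the other at -0.51. None of the 7 listed interferon genes with a named probe was detected, the highest score being 0.74 with FGF2 and 0.78 in the control. The list does not hold every interferon gene: Ifnz, outside it, was detected on at least 1 array, with a log2 ratio of 0.15.

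Among the antiviral effectors outside the 10 genes, Ifitm1 and Ifitm2, membrane proteins that restrict virus entry, were bright and had log2 ratios of 0.04 and -0.01. Pml, which organises nuclear bodies, had -0.03, and Tor3a had -0.18. The values of Ifitm2 and Pml changed sign under other scalings. Of 6 such genes detected, these 4 were detected on both arrays and were within 1.5-fold. The other two, Adar and Trim34a, were under the detection level with FGF2, which gives bounds of -0.15 and -0.05. A further 11 were not detected, among them Mx1, at 134 with FGF2 and 139 in the control, and Mx2, at 131 with FGF2 and 166 in the control. Irf7 also stayed under the detection level, with scores of 0.92 with FGF2 and 0.95 in the control. Of the other genes on the list for nucleic acid sensing and its signalling, the kinase gene Tbk1 had a log2 ratio of -0.12. The adaptor gene Traf6, detected with FGF2 only, had a bound of 0.03, which fell below 0 with the signals as deposited. Of the conjugation genes, Uba7, which activates ISG15, had a log2 ratio of -0.29 and Parp12 had -0.15. Of the other GTPases only Ifi47 was detected, on the control array, with a bound of -0.14, and 7 were not detected.

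Genes listed as targets of interferon gamma went both ways. Serpina3g, a serine protease inhibitor, was 4.51-fold lower with FGF2 and Vcam1, an adhesion molecule for leukocytes, 1.95-fold lower (1254 ± 30.6 with FGF2, 2487 ± 68.7 in the control). Psmb10, a subunit of the immunoproteasome, had a log2 ratio of -0.40. The proteasome activator genes Psme1 and Psme2 had -0.35 and -0.03. Gch1, of tetrahydrobiopterin synthesis, was higher, with a log2 ratio of 2.81 on its brighter probe. That ratio was 3.74 in the authors' table and 1.66 as the mean over its 2 detected probes, since the dimmer one, detected with FGF2 only, had a bound of 0.50. Serpina3g has close relatives beside it in the genome, which makes its signal uncertain.

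**Figure D5:**
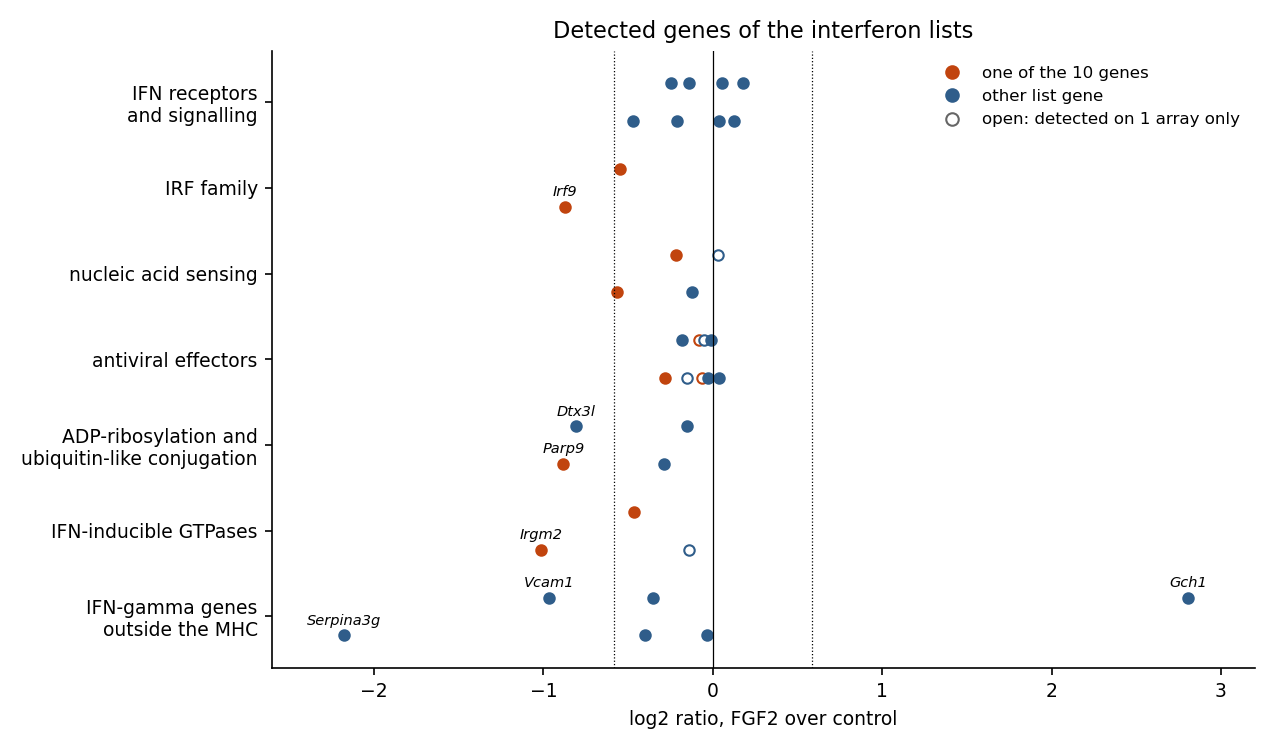
Log2 ratio of FGF2 over control (horizontal axis) of the 36 detected genes of the interferon lists reported here, by list, with the members in orange and other genes in blue; open circles were detected on 1 array only and dotted lines mark 1.5-fold. Names are given where a gene is at least 1.5-fold apart: 6 genes are lower and Gch1 is higher.

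Leukocytes and macrophages also express many of these genes. Of 7 of their markers with a named probe, only Lyz2 was detected, with a log2 ratio of -0.12. The summed signal of the 7 was 994 with FGF2 and 1040 in the control. These sums are mostly background, since a single undetected probe had a median signal of 132.5 with FGF2 and 140.5 in the control. Of 5 fibroblast markers with a named probe all were detected, from Col1a1 at -1.76 to S100a4 at 0.75. In the other lists, Emcn was detected of 2 endothelial markers (0.17), Krt18 and Cldn4 of 3 epithelial markers (0.91 and 0.13) and Hba-a1 of 2 erythroid markers (a bound of -0.04). Their part in the results was not tested. In such bulk RNA, fewer cells with a transcript and less of it per cell cannot be told apart.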

How the data were processed

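Total RNA (300 ng per sample) was amplified linearly (6 h of transcription in vitro) and carried a Cy3 label, per the labels' protocols. The submitters' processing notes name BeadStudio 1.0. Per the file headers, each deposited array file gives an average signal intensity, a bead spread and a detection score, a fraction from 0 to 1. The sources used here do not say if this spread is an SD or a standard error. The authors' table of processed intensities follows the array signals to within 0.095 units.

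Genes were named from the number of at least 5 digits after 1 or 2 zeros in a probe's ID, read as an NCBI gene ID (RefSeq table, GRCm38.p6). Of 9523 such probes 8884 (93.3%) matched, against 48.6% for the next number. The files do not state this rule, and every name depends on it.

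Signals were quantile normalized, floored at the lowest detected signal and given as log2 ratios of FGF2 over control for the brightest detected probe. Genes named are the 10 members, other list genes that were 1.5-fold apart or among the brightest of their list, and the 2 nearest genes of each regulator. Some list genes outside this rule (Mx1, Mx2, Irf7, Tyk2, Adar, Trim34a, Ptpn11) were added after their values were seen. So were Ifnz, Ly6e, Apol9a, Ifi30 and Ifi203, which are on none of the lists. A list gene is not reported here and was left out of the list counts and medians after its values had been seen. Members and lists were chosen with earlier results of these data known. No test was run, since each group has 1 array, and the number of arrays limits the precision. The ratio step was tested on simulated data. The changes were planted only in probes detected on both arrays and well above background, so the step was not tested at the level of the dimmest members. Software: Python 3.11.15, numpy 2.4.6, pandas 2.3.3, and limma 3.58.1 for the neqc alternative.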

Additional observations from a re-analysis of the deposited data

How the results depend on the processing

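The 8 members detected on both arrays kept a ratio below 0 under all 9 alternative settings that give ratios, in 72 of 72 values. Settings that changed only the detection rule or the choice of probe left these 8 ratios unchanged. All settings used the same 2 arrays, so the count is no replicate check. The sign of Ifit3 and Oas1a follows from their detection. No summary value and no gene at least 1.5-fold apart changed sign, but 5 list genes with ratios near 0 did (Ifitm2, Pml, Ptpn11, Traf6 and Tyk2). The median of the members, -0.51, became -0.93 in the authors' table, -0.86 with limma's neqc background correction and -1.01 with the median of undetected probes subtracted. The count of members at least 1.5-fold lower, 3, became 7 under each of these background corrections, 5 with the signals as deposited and 1 with a threshold of 2-fold. The share of all named genes rose too, from 5.04% to 9.98% in the authors' table, and was 1.62% at 2-fold. For the other settings it was not computed, so their counts cannot be set against all genes. With the signals as deposited the median of all named genes was -0.04, against 0.03 after normalization. No member was 1.5-fold higher under any setting. The median of the wider lists, members included, was -0.17 and moved to -0.40 with undetected background subtracted. The difference between regulators and effectors ran from -0.39 to -0.14. Of the single members' values 25 of 88 moved by more than the probe SD of 0.18, as did 22 of 230 values of other list genes. Both totals include the settings of detection or probe choice, which left most values unchanged. No paired analysis was possible because each group has 1 array. Depth is limited here by signal over background: 9 of 10 members had an FGF2 signal under 300 units, against an undetected median of 133.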
